A study of Drosophila melanogaster with 17 samples.

Results

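The UDP-glycosyltransferase (UGT) genes of Drosophila melanogaster were taken as all genes whose FlyBase symbol starts with Ugt followed by a digit. A total of 35 genes met this rule, and all 35 were present among the 23882 features counted in heads and the 18354 features counted in guts. Libraries of polyadenylated RNA were made from heads and guts, which were dissected in PBS from mated males at ZT8, which is 8 h after lights on. The 17 libraries formed 7 groups. Heads came from orco2 mutants and from w1118 flies at day 40 and at day 3 of age, with 2 libraries per group. Guts came from per01, orco2 and w1118 flies at day 40, with 3 libraries per group. Orco encodes the co-receptor that most odorant receptors need, per encodes a core repressor of the circadian clock, and w1118 is a strain without white function that served as the wild type. The labels do not say whether the mutants were bred into the w1118 background, so a mutation and its genetic background cannot be told apart. They also do not say whether the libraries of a group came from separate flies or cultures, so a p-value here reflects the spread among the sequenced libraries and may be technical.

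UGTs are enzymes of the endoplasmic reticulum membrane that join a sugar from a UDP-sugar to small lipophilic molecules, which makes those molecules more soluble and easier to excrete. Insect UGTs mainly use UDP-glucose, and they act on plant toxins, insecticides, pigments, hormones and odorants. In flies they are known from detoxifying tissues such as the gut, Malpighian tubules and fat body, and some members are known from the antenna, where they are thought to clear odorants.

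The family lies on both large autosomes, with 11 genes on arm 2L, 5 on 2R, 2 on 3L and 17 on 3R of the BDGP6 assembly, which shares its coordinates with dm6. Of the 35 genes, 22 stood in 6 runs of at least 2 genes with gaps of at most 20000 bases, and the other 13 stood alone. The longest run held 9 genes on 3R from 11151026 to 11177910, in the order Ugt302K1, Ugt302E1, Ugt302C1, Ugt35E1, Ugt35E2, Ugt35B1, Ugt35A1, Ugt304A1 and Ugt303A1. Ugt35C1, from 11126597 to 11128328 on the same arm, stood alone by this rule. It lay 22698 bases from Ugt302K1, the first gene of that run. A run of 3 on 2L, from 18819344 to 18829059, held Ugt36F1, Ugt36D1 and Ugt36E1, and only 54 bases separated the last pair. Ugt37B1 stood alone on 2L, from 6225048 to 6226842. Exons covered from 1513 to 3316 bases per gene. Another gene on the opposite strand overlapped 5 members, namely CG15418 with Ugt36A1, Pvf2 with Ugt307A1, CG17597 with Ugt36E1, CG44245 with Ugt49B1 and TpnC4 with Ugt50B3. These overlaps are of whole gene spans, and overlap of exons was not checked. Where exons overlap, or copies within a run are close, reads may not have been told apart. The strand and multiple-mapping settings are not given in the sources used here.

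Total counts ran from 25792664 to 41693684 per library. Levels are given as CPM (counts per 1000000 counts) after TMM scaling, and levels of different genes are compared only as CPM per kilobase of exon. Orco had 0.872 and 1.16 CPM in orco2 heads against 2.60 and 3.04 CPM in w1118 heads at day 40, and 1.55 and 1.72 against 7.80 and 6.19 CPM at day 3. The per transcript had 22.9 to 36.5 CPM in per01 guts, 8.27 to 11.1 CPM in orco2 guts and 31.4 to 81.6 CPM in w1118 guts, and a point mutation need not remove its RNA. The white gene had 2.98 to 4.76 CPM in per01 guts, 7.89 to 11.9 CPM in orco2 guts and 0 to 0.741 CPM in w1118 guts. In heads at day 3, white had 32.1 and 31.8 CPM in orco2 flies against 0.0311 and 0 CPM in w1118 flies. At day 40 it had 22.0 and 18.5 CPM against 0.375 and 0.232 CPM. The per transcript had 65.8 and 52.8 CPM in orco2 heads against 137 and 137 CPM in w1118 heads at day 3. At day 40 per had 52.4 and 50.7 CPM against 183 and 181 CPM. In orco2 heads, edgeR called white higher and per lower at each age. Against w1118 guts, it called white higher in orco2 and per01 guts. It called per lower in orco2 guts and not in per01 guts. Photoreceptor markers summed to 34364 to 63615 CPM in head libraries, and gut enzyme markers to 7841 to 135741 CPM in gut libraries. The 7 antennal markers summed to 25.0 to 49.2 CPM in head libraries. Of these, Obp83a, an odorant-binding protein, reached at most 3.75 CPM. Gut libraries of 1 group differed in markers of other tissues. The first w1118 gut library summed to 698 CPM over 7 Malpighian tubule markers, against 2819 and 2822 CPM in the other w1118 libraries. It summed to 161 CPM over 4 enteroendocrine markers, against 17.2 and 30.3 CPM in the others. The third per01 gut library summed to 382 CPM over 5 accessory gland markers, against 3962 and 11752 CPM in the other per01 libraries. The second w1118 gut library summed to 78.0 CPM over 6 photoreceptor markers, against 2.30 and 6.94 CPM in the others. Over 5 testis markers it summed to 736 CPM, against 162 and 237 CPM. The first per01 gut library summed to 652 CPM over the testis markers, against 144 and 135 CPM in the others.

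Summed over the 35 genes, UGT transcripts were more abundant in guts than in heads of the same genotype at day 40. The sum was also higher in the mutants than in w1118. The summed level of the 35 genes was 3835, 5145 and 5765 CPM in per01 guts, 2234, 2072 and 2146 CPM in orco2 guts, and 1302, 780 and 934 CPM in w1118 guts. The 3 gut groups did not overlap in this sum. In heads it was 1119 and 1023 CPM in orco2 flies against 558 and 616 CPM in w1118 flies at day 40. At day 3 it was 617 and 784 CPM in orco2 flies against 466 and 505 CPM in w1118 flies. The orco2 heads were thus above the w1118 heads at each age, without overlap. The sums are descriptions, and heads and guts were scaled separately, so no test sets them against each other. A sum is weighted toward its most abundant members. In guts, the log2 fold change against w1118 was above 0 in 19 of 34 tested members for orco2 and 23 of 34 for per01. In orco2 heads it was above 0 in 22 of 27 at day 40 and 18 of 27 at day 3.

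The makeup of the sum differed between groups. In per01 guts, Ugt35C1 alone made up 42.5% of the mean sum. Ugt35B1 was the most abundant member of orco2 guts (22.3% of the sum) and of orco2 heads (19.8% at day 40 and 25.2% at day 3). In w1118 the leading member was Ugt37D1 in guts (14.4%) and Ugt302C1 in heads (11.6% at day 40 and 12.6% at day 3). Averaged over the groups of a tissue and divided by exon length, the 5 highest members of heads were Ugt35B1 with 73.4 CPM per kilobase, Ugt37D1 with 37.8, Ugt49B1 with 37.5, Ugt302C1 with 36.1 and Ugt49C1 with 30.3. Those of guts were Ugt35C1 with 438 CPM per kilobase, Ugt35B1 with 224, Ugt37D1 with 104, Ugt50B3 with 90.3 and Ugt37A2 with 77.6.

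A group mean of at least 1 CPM was reached in every group of both tissues by 17 members. Another 7 members reached it in all 3 gut groups and in no head group, namely Ugt303A1, Ugt303B1, Ugt303B2, Ugt303B3, Ugt304A1, Ugt37A2 and Ugt37C2. The reverse pattern, head without gut, was found for 0 members. Ugt35D1, Ugt37C1 and Ugt37E1 stayed under 1 CPM in all 7 groups, and the other 8 passed in some groups. Ugt303B3, which had 71.7 to 111 CPM in per01 guts, 118 to 191 CPM in orco2 guts and 41.9 to 104 CPM in w1118 guts, reached at most 0.240 CPM in any head library. Ugt35D1 and Ugt49B2 had 0 counts among the 245622162 counts of the 8 head libraries, which allows up to 0.0122 per 1000000 counts, a limit that covers counting error only. After the filter on low counts, 27 members were tested in heads and 34 in guts. The 8 not tested in heads were Ugt35D1, Ugt49B2, Ugt303B1, Ugt303B2, Ugt303B3, Ugt37A1, Ugt37A2 and Ugt307A1, and the member not tested in guts was Ugt37E1.

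**Figure D1:**
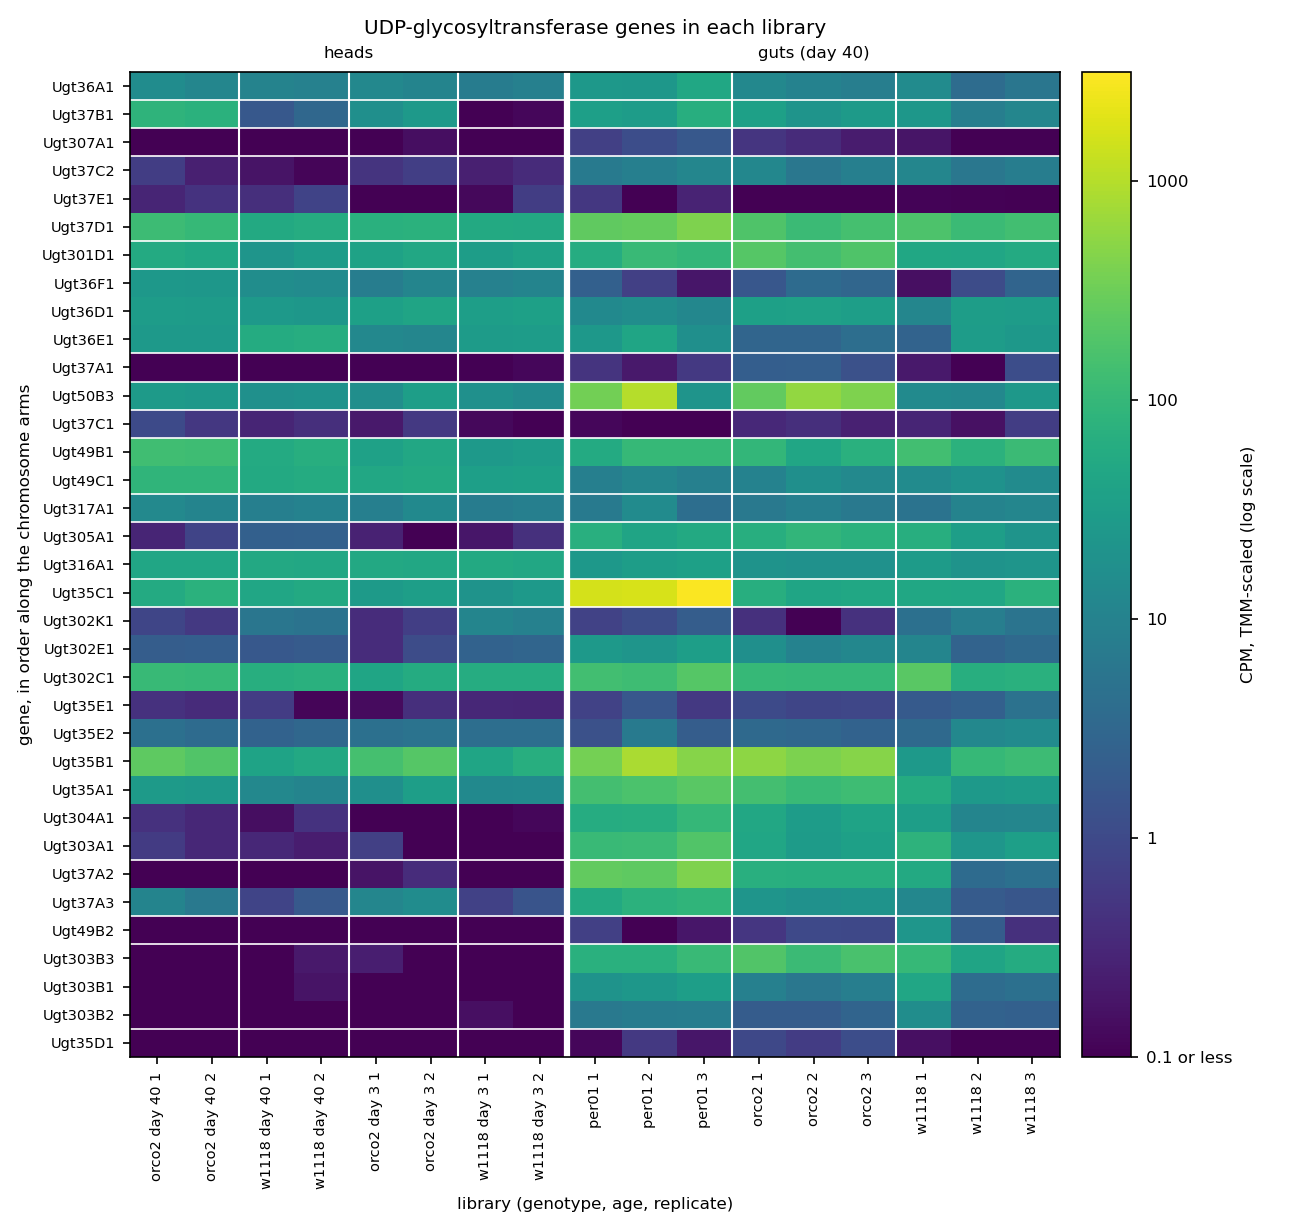
CPM after TMM scaling (colour, log scale, values of 0.1 or less in the darkest shade) of the 35 UGT genes (rows, in chromosome order, lines between runs) in each of the 17 libraries (columns, by genotype, age and replicate). The 3 per01 gut libraries stand out for Ugt35C1, and Ugt303B1, Ugt303B2 and Ugt303B3 show signal in guts and almost none in heads.

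In heads at day 3, orco2 flies had far more Ugt37B1, more Ugt37A3, Ugt35B1 and Ugt49C1, and less Ugt302K1 and Ugt36E1 than w1118 flies. Of 27 members tested, 4 rose and 2 fell at an adjusted p under 0.05 (edgeR quasi-likelihood test, Benjamini-Hochberg over all genes), which is 22.2% of those tested. Over all 12243 genes tested in this comparison, 7.28% were called, 4.85% higher and 2.43% lower. The libraries of the genotypes did not overlap in 17 of 27 members (12 higher, 5 lower), 63.0%, against 49.2% of all genes. The median log2 fold change was 0.40 over the tested members and 0.01 over all genes. In whole tissue, fewer cells of a type and less RNA per cell cannot be told apart.

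Ugt37B1 had 17.7 and 25.9 CPM in orco2 heads at day 3, against 0 and 0.121 CPM in w1118 heads. Both orco2 libraries were high, and the w1118 libraries held 0 and 4 reads. The fitted log2 fold change was 8.38 ± 0.61 (SE, n = 2 each, adjusted p = 0.000362 by edgeR), and its size rests on those few reads. Ugt302K1, at the end of the run of 9 genes, had 0.378 and 0.673 CPM in orco2 heads, against 11.0 and 9.37 CPM in w1118 heads. Its groups lay far apart, with a log2 fold change of -4.27 ± 0.35 (adjusted p = 0.000632). Ugt36E1, which is known from olfactory neurons of the fly antenna, had 12.8 and 11.4 CPM in orco2 heads, against 29.5 and 30.8 CPM in w1118 heads. Both orco2 libraries were low and close to each other, and the log2 fold change was -1.31 ± 0.12 (adjusted p = 0.000989). Ugt37A3 had 11.8 and 15.3 CPM in orco2 heads, against 0.746 and 1.45 CPM in w1118 heads. It was low in both w1118 libraries, with a log2 fold change of 3.62 ± 0.47 (adjusted p = 0.00347).

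Ugt35B1, first described as Ugt35b for its preferential expression in the antenna, had 147 and 206 CPM in orco2 heads at day 3, against 44.2 and 66.2 CPM in w1118 heads. The libraries of a genotype differed from each other, but all orco2 values lay above all w1118 values. The log2 fold change was 1.68 ± 0.25 (adjusted p = 0.00673). Ugt49C1 had 49.4 and 54.3 CPM in orco2 heads, against 34.9 and 36.6 CPM in w1118 heads, without overlap. Its log2 fold change was 0.54 ± 0.10 (adjusted p = 0.0199). Without the first orco2 library at day 3, 12 members were called (9 higher, 3 lower), and with the DESeq2 Wald test 10 were called (7 higher, 3 lower). The calls of Ugt35B1 and Ugt49C1 were each lost under at least 1 alternative, while those of Ugt37B1, Ugt302K1, Ugt36E1 and Ugt37A3 were kept under all of them.

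At day 40 the same 6 members were called in the same direction in orco2 heads, and 6 more rose. Of 27 tested members, 10 rose and 2 fell, 44.4% of those tested, against 13.0% of all genes called in this comparison, 8.06% higher and 4.89% lower. The genotypes did not overlap in 24 of 27 members (20 higher, 4 lower), 88.9%, against 66.1% of all genes. The median log2 fold change was 0.54 over the members and -0.00 over all genes. The 6 shared calls were 50% of the calls at day 40 and 100% of those at day 3. These comparisons share no library but set the same strains against each other. The overlap of calls over all genes was not computed.

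Ugt37B1 had 84.9 and 75.0 CPM in orco2 heads at day 40, against 1.70 and 3.25 CPM in w1118 heads. Its mean was 32.3 times higher in orco2 heads, with no overlap, and the log2 fold change was 5.01 ± 0.40 (adjusted p = 0.000509). Of its tested neighbours on the chromosome, looked up after its value was seen, AANATL2 was called higher at day 40 (log2 fold change 0.75, adjusted p = 0.0481) and not at day 3, and smal and Ddr were not called at either age. Ugt36E1 had 27.7 and 26.6 CPM in orco2 heads, against 57.9 and 62.4 CPM in w1118 heads. Both orco2 libraries were again low, with a log2 fold change of -1.15 ± 0.12 (adjusted p = 0.00117). Ugt302K1 had 0.872 and 0.565 CPM in orco2 heads, against 5.86 and 5.19 CPM in w1118 heads. It stayed near the detection level in both orco2 libraries, and the log2 fold change was -2.94 ± 0.34 (adjusted p = 0.00195). Ugt35B1 had 237 and 188 CPM in orco2 heads, against 41.0 and 52.1 CPM in w1118 heads. The groups were far apart, with a log2 fold change of 2.19 ± 0.25 (adjusted p = 0.00207). Ugt37A3 had 10.9 and 6.60 CPM in orco2 heads, against 0.837 and 1.80 CPM in w1118 heads. The orco2 libraries differed from each other but lay above both w1118 libraries, with a log2 fold change of 2.73 ± 0.45 (adjusted p = 0.00896).

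The other 7 members called in orco2 heads at day 40 all rose. Ugt37D1 had 119 and 104 CPM in orco2 heads, against 54.6 and 61.9 CPM in w1118 heads, a log2 fold change of 0.94 ± 0.12 (adjusted p = 0.00267). Ugt49B1 had 132 and 126 CPM in orco2 heads, against 56.0 and 66.7 CPM in w1118 heads, a log2 fold change of 1.07 ± 0.17 (adjusted p = 0.00693). Its neighbour Ugt49C1 had 86.6 and 87.6 CPM in orco2 heads, against 53.7 and 57.8 CPM in w1118 heads, a log2 fold change of 0.64 ± 0.10 (adjusted p = 0.00763). In each of these members both orco2 libraries were above both w1118 libraries. Ugt301D1 had 56.2 and 48.6 CPM in orco2 heads, against 22.2 and 30.9 CPM in w1118 heads, and its log2 fold change was 0.98 ± 0.20 (adjusted p = 0.0208). Ugt302C1 had 109 and 105 CPM in orco2 heads, against 65.3 and 70.7 CPM in w1118 heads, and its log2 fold change was 0.66 ± 0.14 (adjusted p = 0.0213). Neither overlapped between genotypes. Ugt35A1 and Ugt36F1 rose with log2 fold changes of 1.21 and 0.68. Only 5 members were called without the first w1118 library at day 40 or without the first orco2 library at day 40, and 7 without the second orco2 library. The calls of Ugt37B1, Ugt36E1, Ugt302K1, Ugt35B1 and Ugt37D1 were kept under all alternatives.

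Markers of several head cell types, among them the fat body, moved with genotype and with age. The 6 fat body markers summed to 8326 to 9740 CPM in orco2 heads against 3563 to 4411 CPM in w1118 heads at day 40, and to 4949 to 6730 CPM against 1441 to 1854 CPM at day 3. None of the 6 was at 0 in any group. In orco2 against w1118 heads, 5 of 6 were called higher at day 3, and 3 higher and 1 lower at day 40. Of 6 antennal markers tested, Orco fell at each age and the other 5 were not called. Photoreceptor markers had 4 of 6 higher in orco2 heads at day 3 and 1 of 6 at day 40. Their sum was 39418 to 47628 CPM in orco2 heads against 34364 to 37337 CPM in w1118 heads at day 3. Neuron markers had 2 of 5 lower in orco2 heads at day 40, where they summed to 2753 to 2956 CPM in orco2 heads against 3585 to 3955 CPM in w1118 heads. At day 3, 1 of 5 glia markers was higher in orco2 heads, and at day 40, 1 of 4 muscle markers. The 7 gut enzyme markers varied among head libraries. They summed to 502 and 3.70 CPM in orco2 heads and 3.88 and 5.23 CPM in w1118 heads at day 3. At day 40 they summed to 393 and 413 CPM in orco2 heads, where 6 of the 7 were under 1 CPM. In w1118 heads they then summed to 81.4 and 382 CPM. Of 6 tested, edgeR called 0 at either age, and DESeq2 3 higher at day 3 and 3 lower at day 40. Accessory gland markers summed to 3.88 and 0.0748 CPM in orco2 heads at day 3. The part of these tissues in the UGT differences was not tested.

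**Figure D2:**
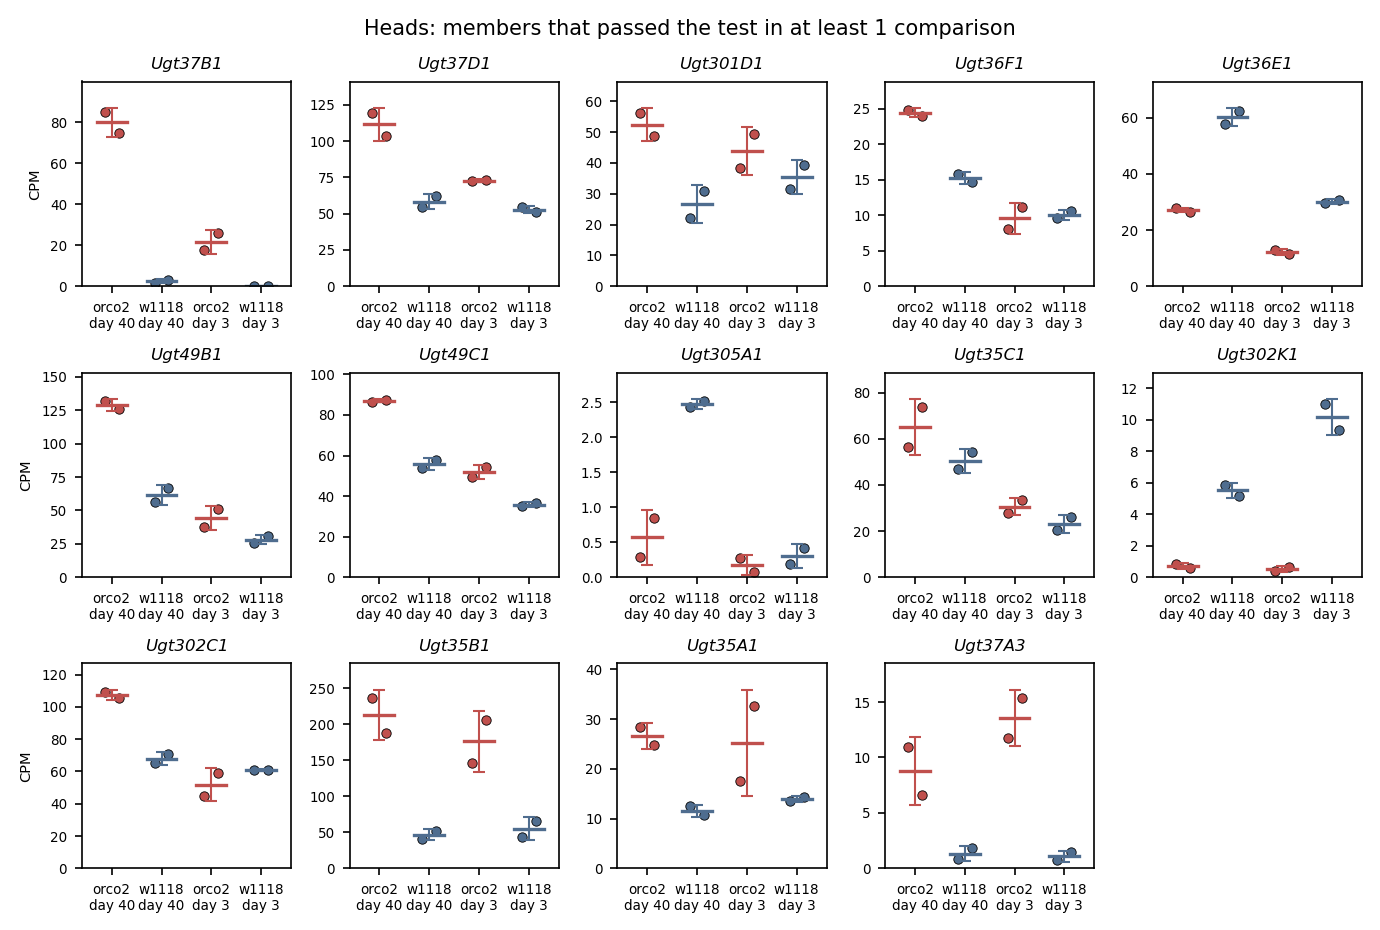
CPM after TMM scaling of the 14 members called in at least 1 head comparison, by group (orco2 and w1118 at day 40, then at day 3). Points are libraries, the horizontal line is the mean and the bar is the SD (n = 2). Ugt37B1, Ugt35B1 and Ugt37A3 are high in orco2 heads at each age, and Ugt302K1 and Ugt36E1 are low.

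With age, some UGT genes rose in heads of either genotype, and most did not pass the test. In orco2 heads, 8 of 27 members rose at day 40 against day 3 and 0 fell (edgeR), where 24.2% of all genes were called, 12.8% higher and 11.4% lower. The 29.6% of members called was thus near the share of all genes. At an unadjusted p under 0.05, 1 member was lower, and DESeq2 and limma-voom called 0. The ages did not overlap in 16 members (12 higher, 4 lower), 59.3%, against 60.7% of all genes. The median log2 fold change was 0.53 over the members and -0.01 over all genes. In w1118 heads, 6 of 27 rose and 0 fell, where 15.8% of all genes were called, 8.56% higher and 7.23% lower. At an unadjusted p under 0.05, 3 members were lower there. The DESeq2 Wald test called 2 lower, and limma-voom 1. Here the ages did not overlap in 21 members (14 higher, 7 lower), 77.8%, against 67.8% of all genes. The median was 0.24 over the members and 0.04 over all genes. Both genotypes shared 5 calls, Ugt36E1, Ugt37B1, Ugt49B1, Ugt49C1 and Ugt35C1, which is 62.5% of the calls in orco2 and 83.3% of those in w1118. These comparisons share no library, and the overlap of calls over all genes was not computed.

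The members with a shared rise differed in how much of their level depended on age. The values given above for Ugt36E1 correspond to a log2 fold change with age of 1.16 ± 0.12 in orco2 heads (adjusted p = 0.00110) and of 1.00 ± 0.12 in w1118 heads (adjusted p = 0.00175). The 26.6 and 27.7 CPM of orco2 heads at day 40 lay just under the 29.5 and 30.8 CPM of w1118 heads at day 3, a pair of groups that was not tested. Ugt49B1 had 38.0 and 50.9 CPM in orco2 heads and 25.8 and 30.7 CPM in w1118 heads at day 3, below every library at day 40. Its log2 fold change with age was 1.54 ± 0.17 in orco2 heads (adjusted p = 0.00131) and 1.12 ± 0.17 in w1118 heads (adjusted p = 0.00491). Ugt49C1 rose with log2 fold changes of 0.75 ± 0.10 in orco2 heads (adjusted p = 0.00265) and 0.64 ± 0.10 in w1118 heads (adjusted p = 0.00629).

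Ugt35C1, also named Ugt86Dd and known in the fly for its part in nicotine resistance, had 56.5 and 73.6 CPM at day 40 against 27.9 and 33.3 CPM at day 3 in orco2 heads. In w1118 heads it had 46.7 and 54.2 CPM at day 40 against 20.4 and 25.9 CPM at day 3. The ages did not overlap in either genotype, with log2 fold changes of 1.09 ± 0.18 in orco2 heads (adjusted p = 0.00543) and 1.12 ± 0.18 in w1118 heads (adjusted p = 0.00659). Between genotypes, the log2 fold change of Ugt35C1 was 0.37 ± 0.18 at day 40 (adjusted p = 0.220), which did not pass. Ugt37B1 rose with age by a log2 fold change of 1.88 ± 0.34 in orco2 heads (adjusted p = 0.00743) and 5.25 ± 0.69 in w1118 heads (adjusted p = 0.00270), where it started from 0 and 4 reads.

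Called in orco2 heads alone were Ugt302C1, Ugt36F1 and Ugt37D1, and in w1118 heads alone Ugt305A1. Ugt302C1 had 109 and 105 CPM at day 40 against 44.6 and 58.9 CPM at day 3 in orco2 heads, a log2 fold change of 1.05 ± 0.14 (adjusted p = 0.00233). In w1118 heads it lay between 61.0 and 70.7 CPM at each age. Ugt36F1 had 24.9 and 24.0 CPM at day 40 against 8.04 and 11.1 CPM at day 3 in orco2 heads, a log2 fold change of 1.35 ± 0.18 (adjusted p = 0.00238). Ugt37D1 had 119 and 104 CPM at day 40 against 72.3 and 73.4 CPM at day 3 in orco2 heads, a log2 fold change of 0.61 ± 0.12 (adjusted p = 0.00853). None of these overlapped between ages. Ugt305A1 had 2.42 and 2.52 CPM at day 40 against 0.186 and 0.423 CPM at day 3 in w1118 heads, a log2 fold change of 3.00 ± 0.73 (adjusted p = 0.0296).

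Whether the age response differed by genotype was tested as an interaction, and edgeR called 0 of 27 members, where 0.00817% of all genes were called. At an unadjusted p under 0.05 there were 7 members, the DESeq2 Wald test called 2 (1 higher, 1 lower) and limma-voom called 0. The smallest p belonged to Ugt302C1, whose age response was larger in orco2 heads by 0.90 ± 0.20 on the log2 scale (adjusted p = 0.273). Ugt37B1 followed with a difference of -3.37 ± 0.86 (adjusted p = 0.334), and Ugt302E1 with 2.14 ± 0.67 (adjusted p = 0.388). The calls made in 1 genotype alone were therefore not shown to differ between genotypes. In the ageing comparisons, w1118 heads had 2 calls without the first w1118 library at day 3 and 3 without the second w1118 library at day 40. Under all alternatives, Ugt36E1 and Ugt37B1 kept their calls in w1118 heads, and in orco2 heads all but Ugt37B1 and Ugt37D1 did. The interaction had 1 call without the first and 3 without the second orco2 library at day 3. Markers of head cell types also moved with age. Those of the fat body had 2 of 6 called higher in orco2 heads and 6 of 6 in w1118 heads. Photoreceptor markers had 3 higher and 2 lower of 6 in orco2 heads, and 4 higher and 1 lower in w1118 heads. Neuron markers had 4 of 5 lower in orco2 heads and 1 of 5 in w1118 heads, and muscle markers had 3 of 4 lower in orco2 heads and 4 of 4 in w1118 heads. Glia markers had 2 higher and 2 lower of 5 in orco2 heads, and 1 lower in w1118 heads. Antennal markers had 1 of 6 higher in orco2 heads, and 1 higher and 2 lower in w1118 heads. Of 6 gut enzyme markers tested, edgeR called 0 in orco2 heads and 1 higher in w1118 heads. For these, the DESeq2 Wald test called 3 lower in orco2 heads and 4 higher in w1118 heads. Their part in the age results was not tested.

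In guts at day 40, orco2 flies had more Ugt50B3, Ugt35B1, Ugt301D1 and Ugt35A1 and less Ugt302K1 and Ugt36E1 than w1118 flies. Of 34 tested members, 6 rose and 2 fell, 23.5% of those tested, against 26.6% of all genes called in this comparison, 11.5% higher and 15.1% lower. The share of members called was thus close to that of all genes. In 15 members the libraries did not overlap (11 higher, 4 lower), 44.1% of those tested, against 61.6% of all genes. The median log2 fold change was 0.20 over the members and 0.06 over all genes.

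Ugt301D1 had 203, 145 and 185 CPM in orco2 guts, against 47.1, 45.3 and 56.6 CPM in w1118 guts. All orco2 libraries were far above the w1118 ones, and the log2 fold change was 1.84 ± 0.27 (SE, n = 3 each, adjusted p = 0.00504 by edgeR). Ugt302K1 had 0.415, 0.101 and 0.437 CPM in orco2 guts, against 4.52, 8.28 and 5.44 CPM in w1118 guts. It was under 1 CPM in each orco2 library, with a log2 fold change of -4.24 ± 0.69 (adjusted p = 0.00681). Ugt35A1 had 145, 112 and 128 CPM in orco2 guts, against 58.0, 26.7 and 29.5 CPM in w1118 guts. The groups did not overlap, and the log2 fold change was 1.75 ± 0.34 (adjusted p = 0.0107). Its neighbour Ugt35B1 had 548, 410 and 482 CPM in orco2 guts, against 26.2, 105 and 120 CPM in w1118 guts. It was lowest in the first w1118 library, and the log2 fold change was 2.52 ± 0.57 (adjusted p = 0.0171).

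Ugt50B3, of a UGT subfamily found in most insects, had 267, 589 and 425 CPM in orco2 guts, against 14.1, 12.5 and 25.3 CPM in w1118 guts. Its mean was 24.7 times higher in orco2 guts, without overlap, and the log2 fold change was 4.63 ± 1.14 (adjusted p = 0.0231). The call was lost without any 1 of the w1118 libraries, without the second or the third orco2 library, and with the replicate block (adjusted p = 0.0516 to 0.0684). Ugt35D1 was near the detection level, with 0.955, 0.634 and 1.18 CPM in orco2 guts, against 0.155, 0.0793 and 0.0349 CPM in w1118 guts. Its log2 fold change was 3.27 ± 0.85 (adjusted p = 0.0267). Ugt36E1 had 2.99, 2.89 and 4.15 CPM in orco2 guts, against 2.73, 30.1 and 25.5 CPM in w1118 guts. The first w1118 library was as low as the orco2 libraries, so the groups overlapped, and the log2 fold change was -2.54 ± 0.77 (adjusted p = 0.0431). Without that library it was -3.05 (adjusted p = 0.00466), and the call was lost without either other w1118 library, without any 1 of the orco2 libraries, with limma-voom and with the replicate block (adjusted p = 0.0828 to 0.195). Ugt303B3 had 191, 118 and 163 CPM in orco2 guts, against 104, 41.9 and 57.8 CPM in w1118 guts. Every orco2 library lay above every w1118 one, with a log2 fold change of 1.21 ± 0.37 (adjusted p = 0.0433).

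The count of 8 depended on single libraries. Without the first w1118 gut library, 15 members were called (11 higher, 4 lower). Leaving out the second or the third w1118 library gave 4 and 3 calls, and leaving out the first, the second or the third orco2 library gave 4, 3 and 2. The calls of Ugt301D1 and Ugt302K1 were kept under all alternatives, and each of the other 6 was lost without at least 1 library. In heads at day 40 and in guts, 5 members were called in the same direction in orco2 flies, Ugt36E1 and Ugt302K1 lower and Ugt35B1, Ugt301D1 and Ugt35A1 higher. They were 41.7% of the calls in heads and 62.5% of those in guts. Heads and guts share no library here but set the same strains against each other, and the overlap over all genes was not computed. Ugt37B1, the member with the widest difference in heads, had 35.9, 21.5 and 27.8 CPM in orco2 guts, against 23.9, 8.49 and 11.4 CPM in w1118 guts, and was not called there.

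**Figure D3:**
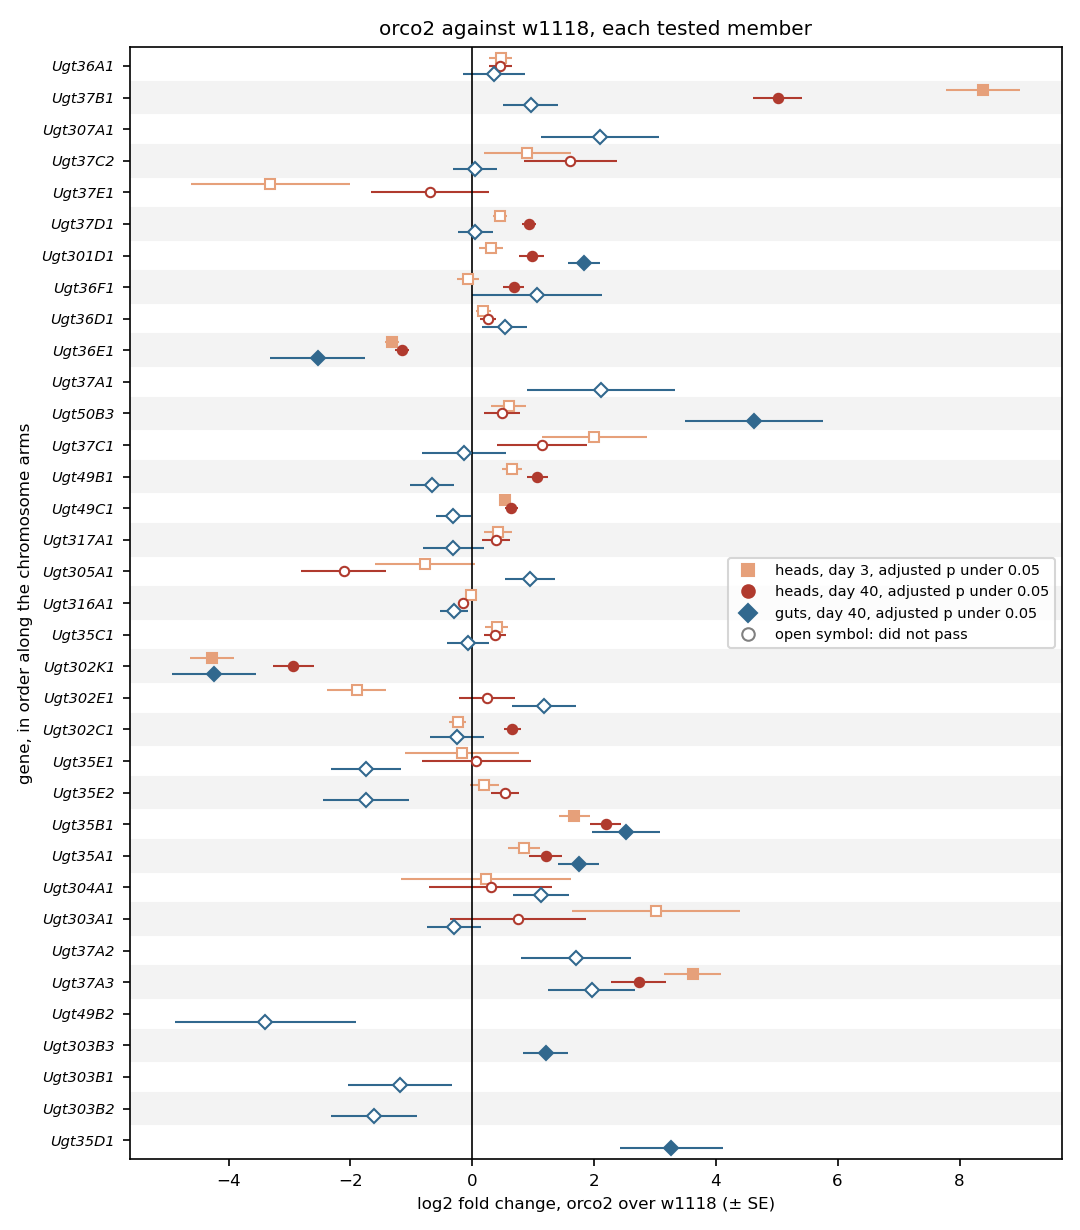
Log2 fold change ± SE (horizontal axis) of orco2 over w1118 for each tested member (rows, in chromosome order) in heads at day 3, heads at day 40 and guts at day 40. Filled symbols passed an adjusted p of 0.05 and open symbols did not. Ugt302K1 and Ugt36E1 lie below 0 and Ugt35B1 above 0 in all 3 comparisons, while Ugt37B1 has the highest values in heads, 8.38 at day 3 and 5.01 at day 40, and was not called in guts.

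In per01 guts, Ugt35C1 stood out from the rest of the family. It had 1641, 1669 and 2956 CPM in per01 guts, against 66.6, 44.2 and 48.9 CPM in orco2 guts and 47.1, 46.4 and 73.7 CPM in w1118 guts. All per01 libraries were far above all others, and orco2 and w1118 guts overlapped. The mean in per01 guts, 2089 ± 752 CPM (SD, n = 3), was 37.5 times that of w1118 guts and 39.2 times that of orco2 guts. The log2 fold change was 5.23 ± 0.41 against w1118 guts (adjusted p = 0.00166) and 5.29 ± 0.41 against orco2 guts (adjusted p = 0.00207), and both calls were kept under all alternatives. Its tested neighbours on the chromosome, CG43449, SdhCL and mAcon2, which were looked up after its value was seen, were not called in either comparison.

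Against w1118 guts, 13 of 34 tested members rose in per01 guts and 1 fell, 41.2% of those tested, where 19.0% of all genes were called, 9.66% higher and 9.33% lower. In 17 members the libraries did not overlap (13 higher, 4 lower), 50% of those tested, against 32.6% of all genes. The median log2 fold change was 0.48 over the members and 0.00 over all genes. This comparison and the one of orco2 with w1118 guts share the w1118 libraries. Ugt35A1 had 141, 167 and 224 CPM in per01 guts, against 26.7 to 58.0 CPM in w1118 guts, and the log2 fold change was 2.22 ± 0.34 (adjusted p = 0.00683). Ugt35B1 had 357, 839 and 482 CPM in per01 guts, against 26.2 to 120 CPM in w1118 guts, and the log2 fold change was 2.74 ± 0.57 (adjusted p = 0.0163). Neither overlapped between the genotypes. Further along the same run, Ugt304A1 had 62.1, 62.6 and 99.9 CPM in per01 guts, against 32.9, 11.1 and 11.7 CPM in w1118 guts, a log2 fold change of 2.01 ± 0.47 (adjusted p = 0.0223). Ugt302E1 had 27.5, 21.8 and 33.6 CPM in per01 guts, against 11.1, 2.75 and 3.45 CPM in w1118 guts, a log2 fold change of 2.26 ± 0.55 (adjusted p = 0.0256). In both, the highest w1118 value was that of the first library.

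The pair Ugt37A2 and Ugt37A3, which lie tail to tail on 3R, rose together in per01 guts. Ugt37A2 had 262, 241 and 427 CPM in per01 guts, against 53.7, 3.76 and 4.60 CPM in w1118 guts, a log2 fold change of 3.90 ± 0.99 (adjusted p = 0.0297). Ugt37A3 had 53.8, 78.0 and 86.7 CPM in per01 guts, against 12.3, 1.98 and 1.57 CPM in w1118 guts, a log2 fold change of 3.78 ± 0.77 (adjusted p = 0.0151). In each gene the first w1118 library lay well above the other w1118 libraries and below all per01 ones. Without that library the log2 fold change was 6.22 for Ugt37A2 (adjusted p = 0.000497) and 5.36 for Ugt37A3 (adjusted p = 0.000530). The call of Ugt37A2 was lost without the second or the third w1118 library, the second or the third per01 library, or any 1 of the orco2 libraries, and in a fit of only the 2 groups (adjusted p = 0.0525 to 0.0973). Ugt37D1 had 257, 272 and 424 CPM in per01 guts, against 179, 116 and 140 CPM in w1118 guts, a log2 fold change of 1.13 ± 0.29 (adjusted p = 0.0304). Ugt50B3 had 345, 994 and 20.9 CPM in per01 guts, against 14.1, 12.5 and 25.3 CPM in w1118 guts, a log2 fold change of 4.71 ± 1.14 (adjusted p = 0.0258). In the third per01 library, low in accessory gland markers, it was at the level of w1118 guts, so the groups overlapped. Without that library the log2 fold change of Ugt50B3 was 5.28 (adjusted p = 0.00737). The call was lost without any 1 of the w1118 libraries, the second per01 library or the third orco2 library, with limma-voom, with the replicate block and in a fit of only the 2 groups (adjusted p = 0.0503 to 0.0867). Ugt307A1 stayed low, with 0.722, 1.17 and 1.72 CPM in per01 guts, against 0.177, 0.0529 and 0 CPM in w1118 guts, a log2 fold change of 3.83 ± 1.01 (adjusted p = 0.0339).

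Among the rest, Ugt36A1, Ugt303A1 and Ugt37B1 rose with log2 fold changes of 1.98, 1.62 and 1.59, and Ugt302K1 fell with one of -2.18. Leaving out a library changed the count of 14 calls by over 1.5 times in 7 cases. It was 4 and 5 without the second and the third w1118 library, 8, 9 and 5 without the first, the second and the third orco2 library, and 4 and 6 without the second and the third per01 library. It was 16 without the first w1118 library and 3 when only the per01 and w1118 libraries were fitted. Ugt35C1 and Ugt35A1 kept their calls under all alternatives.

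Against orco2 guts, Ugt35C1 was the single member called of 34 in per01 guts, 2.94% of those tested, where 5.40% of all genes were called, 3.33% higher and 2.07% lower. In 21 members the libraries did not overlap (15 higher, 6 lower), 61.8% of those tested, against 54.6% of all genes. The median log2 fold change was 0.39 over the members and 0.08 over all genes. At an unadjusted p under 0.05, 10 members were higher and 3 lower. The count rested on the test and on single libraries, as the DESeq2 Wald test called 11 members (8 higher, 3 lower), limma-voom 8, DESeq2 size factors 2 and a fit of only these groups 13. It was 10 without the first w1118 library, 2 without the second and 9 without the first per01 library. Next to the threshold stood Ugt303A1, with 114, 119 and 188 CPM in per01 guts, against 45.2, 29.7 and 36.5 CPM in orco2 guts, a log2 fold change of 1.92 ± 0.46 (adjusted p = 0.0501). Ugt36E1 had 25.0, 45.0 and 17.1 CPM in per01 guts, against 2.99, 2.89 and 4.15 CPM in orco2 guts, a log2 fold change of 3.12 ± 0.79 (adjusted p = 0.0553). Ugt301D1 had 60.6, 111 and 95.2 CPM in per01 guts, against 203, 145 and 185 CPM in orco2 guts (adjusted p = 0.0574). These 3 members, named for the smallest p after Ugt35C1, did not overlap between the genotypes but did not pass.

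**Figure D4:**
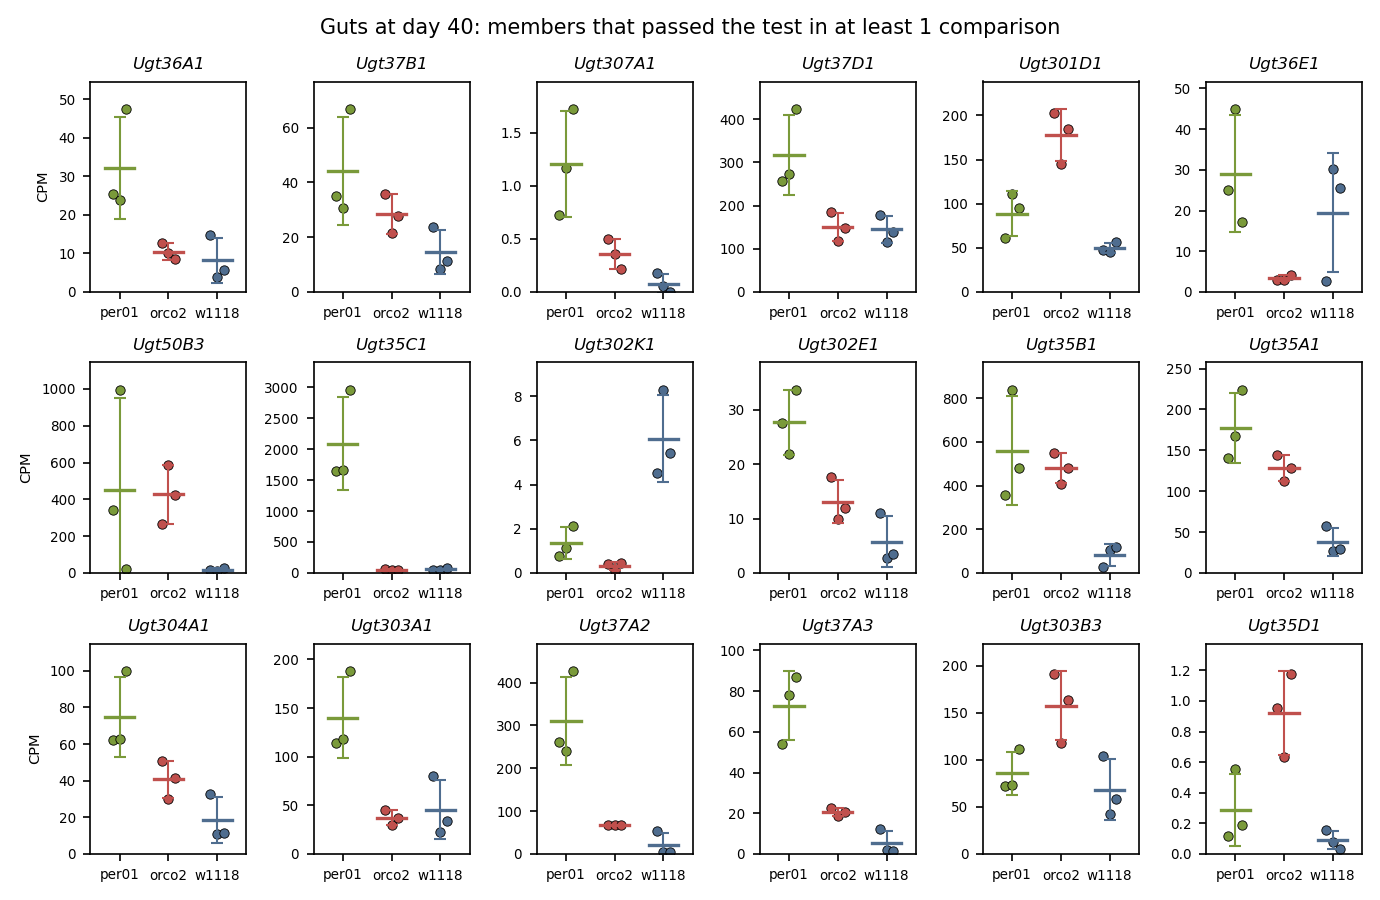
CPM after TMM scaling of the 18 members called in at least 1 gut comparison, by group (per01, orco2, w1118, all at day 40). Points are libraries, the horizontal line is the mean and the bar is the SD (n = 3). Ugt35C1 is high in per01 guts alone, and Ugt50B3 spreads from 20.9 to 994 CPM among the per01 libraries.

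Some gut members varied along with markers of other tissues. Ugt50B3 and the sum of 5 accessory gland markers had the same order of libraries within each genotype. That sum was 3962, 11752 and 382 CPM in per01 guts, 3762, 6009 and 5030 CPM in orco2 guts, and 66.1, 3.31 and 176 CPM in w1118 guts. Of these 5 markers, 3 were called higher in per01 guts and 4 in orco2 guts against w1118 guts, and none was at 0 in any gut group. In heads, where the sum was at most 3.88 CPM, Ugt50B3 had 14.6 to 33.4 CPM and was not called. The part of accessory gland tissue in the gut result of Ugt50B3 was not tested.

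Ugt36E1 was low in orco2 guts and in the first w1118 gut library, where Uro, urate oxidase, was low too. Uro is 1 of the 7 Malpighian tubule markers listed. Uro had 370, 634 and 632 CPM in per01 guts, 141, 65.1 and 95.6 CPM in orco2 guts, and 70.2, 851 and 641 CPM in w1118 guts. Within per01 and within orco2 guts, Ugt36E1 and Uro ordered the libraries differently. The 7 tubule markers summed to 1954 to 3412 CPM in per01 guts, 1180 to 2180 CPM in orco2 guts and 698 to 2822 CPM in w1118 guts, and none was at 0. The sum was 2180 CPM in the first orco2 library and 1954 CPM in the first per01 library, where Ugt36E1 had 2.99 and 25.0 CPM. In orco2 against w1118 guts, edgeR and limma-voom called 0 of the 7, the DESeq2 Wald test called 1 lower, and 1 was lower at an unadjusted p under 0.05 in edgeR. In heads, where Ugt36E1 fell as well, Uro had at most 0.174 CPM. Tk, an enteroendocrine peptide gene and 1 of the 4 enteroendocrine markers, had 173, 174 and 314 CPM in per01 guts. It had 51.8, 40.2 and 42.7 CPM in orco2 guts and 79.8, 5.21 and 7.18 CPM in w1118 guts. Tk and Ugt37A2 ordered the libraries alike within orco2 and within w1118 guts, and differently within per01 guts. In the first w1118 library Tk was above every orco2 library. Ugt37A2 had 53.7 CPM in that library, below the 66.9 to 68.6 CPM of orco2 guts. The 4 enteroendocrine markers summed to 437 to 695 CPM in per01 guts, 113 to 134 CPM in orco2 guts and 17.2 to 161 CPM in w1118 guts. None was at 0, and 2 of 4 were called higher in per01 guts against w1118 guts. The 7 enterocyte and gut enzyme markers summed to 71010 to 135741 CPM in per01 guts. The sum was 12280 to 24830 CPM in orco2 guts and 7841 to 14202 CPM in w1118 guts. Of the 7, 5 were called higher in per01 guts against each of the others, and 2 in orco2 guts against w1118 guts. Ugt35C1 was high in the same per01 libraries. The 4 visceral muscle markers summed to 2083 to 2872 CPM in per01 guts, 1198 to 1549 CPM in orco2 guts and 2998 to 4488 CPM in w1118 guts, with 3 of 4 called lower in orco2 guts against w1118 guts. The 2 stem cell and enteroblast markers counted summed to 51.5 to 85.1 CPM in w1118 guts. That sum was 10.8 to 14.1 CPM in orco2 guts and 14.1 to 34.4 CPM in per01 guts. In each mutant, 1 of the 2 was called lower. Testis markers summed to 1107 to 1871 CPM in orco2 guts and 162 to 736 CPM in w1118 guts. Of 4 tested, edgeR called 0, the DESeq2 Wald test 3 higher and limma-voom 4 higher. In orco2 guts against w1118 guts, 2 of 5 neuron and 1 of 4 glia markers were lower. The part of these cell types in the results was not tested.

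**Figure D5:**
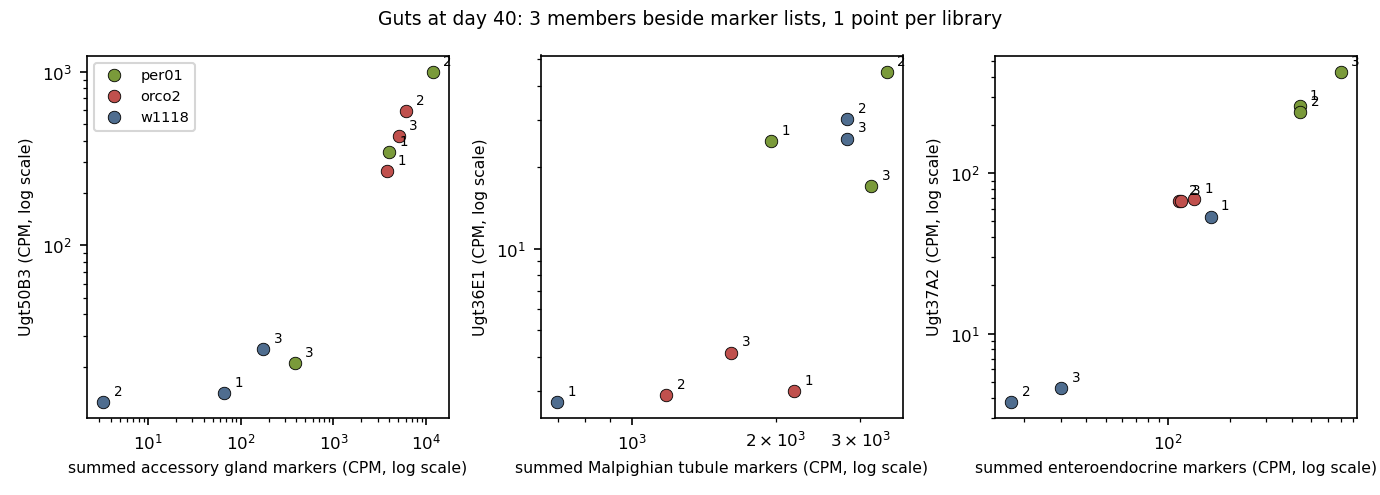
Level of a UGT gene (vertical axis, CPM, log scale) against the summed level of a marker list (horizontal axis, CPM, log scale) in each of the 9 gut libraries, numbered by replicate. Ugt50B3 is shown with accessory gland markers, Ugt36E1 with Malpighian tubule markers and Ugt37A2 with enteroendocrine markers; the third per01 library lies with the w1118 libraries in the first panel.

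Within a run, some neighbours were called in opposite directions and others in the same one. In the run of 9 on 3R, orco2 heads at day 40 had Ugt35B1, Ugt35A1 and Ugt302C1 higher and Ugt302K1 lower. In per01 guts against w1118 guts, 5 of the 9 rose (Ugt35A1, Ugt35B1, Ugt304A1, Ugt302E1 and Ugt303A1), and Ugt302K1 again fell. In the run of 3 on 2L, Ugt36F1 rose and Ugt36E1 fell in orco2 heads at day 40. Ugt36D1, between them, had 31.2 and 29.2 CPM in orco2 heads, against 26.4 and 24.2 CPM in w1118 heads, and was not called. Ugt49B1 and Ugt49C1 were both called higher in orco2 heads at day 40 and with age in each genotype. In per01 guts against orco2 guts, all 9 of the run on 3R had a log2 fold change above 0, and none was called.

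A list of 22 partner genes covered the supply of UDP-sugars, sulfotransferases, glutathione synthesis, ABC transporters and the regulators cnc, Keap1 and Hr96. In orco2 heads at day 3, where 7.28% of all genes were called, 2 of 22 rose, namely Mdr50, an ABC transporter (log2 fold change 3.14), and Galt, an enzyme of galactose use that yields UDP-galactose (1.10). At day 40, 6 rose and 1 fell, against 13.0% of all genes called, and the smallest p belonged to Mdr50 (2.74), Galt (1.32) and UGP, the enzyme that makes UDP-glucose (0.97). UGP averaged 505 CPM in orco2 heads and 257 CPM in w1118 heads. With age, 9 rose in orco2 heads and 0 fell, against 24.2% of all genes called, and 0 were lower at an unadjusted p under 0.05 and by DESeq2 or limma-voom. In w1118 heads 4 rose and 1 fell, against 15.8% of all genes called. In either genotype Mdr50 and cnc, the fly Nrf2 factor, were among the 3 with the smallest p, with log2 fold changes of 3.85 and 0.59 in orco2 heads and 4.25 and 0.63 in w1118 heads. The interaction called 0 of 22 with edgeR, DESeq2 or limma-voom, with 1 at an unadjusted p under 0.05.

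In orco2 guts, 7 of 21 tested partners fell against w1118 guts and 0 rose, where 26.6% of all genes were called, with Keap1, the inhibitor of cnc (-1.99), MRP, an ABC transporter (-1.75), and Hr96, a xenobiotic receptor (-1.65), having the smallest p. At an unadjusted p under 0.05, 1 was higher, and DESeq2 and limma-voom called 0 higher. Keap1 averaged 10.4 CPM in orco2 guts and 41.5 CPM in w1118 guts. In per01 guts against w1118 guts, edgeR called 0 of 21, against 19.0% of all genes, with 5 at an unadjusted p under 0.05 (4 higher, 1 lower), and the DESeq2 Wald test called 2 lower and limma-voom 1 higher. Against orco2 guts, where 5.40% of all genes were called, 2 rose in per01 guts, Keap1 (1.32) and Gclc, which makes the first step of glutathione synthesis (1.44).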

How the data were processed

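The deposited values are unnormalised counts of reads per gene, in a separate table for each tissue, made by the authors with fastp, HISAT2 and featureCounts against dm6 and used with DESeq2, per the submitters' processing notes, with no version or setting given in the sources used here. Symbols, exon lengths and positions came from the Ensembl annotation of BDGP6. Each tissue was fitted alone with all its groups in edgeR 4.0.16 (R 4.3.3) with TMM scaling, filterByExpr at a minimum count of 10, glmQLFit and glmQLFTest, with Benjamini-Hochberg adjustment over all genes and a threshold of 0.05. SE is the absolute log2 fold change over the root of F. Dispersion had a median of 0.0282 over head genes and 0.176 over gut genes. Counts from 1 to 20 were even numbers in 60.3 to 75.5% of cases per library, so limits from counting error may be too narrow. Replicate libraries differed by more than sampling noise, and none was identical to another. The fits were checked on simulated counts.

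Members, partner genes and marker lists were chosen with earlier results of these data known. Per-library values cover up to 10 called members per comparison by smallest p, and the 5 most abundant per kilobase in each tissue. They are also given in per01 against orco2 guts, where 1 member passed, for the 3 members next by p. Partner genes are named where they passed, up to 3 per comparison, and the values of 1 partner gene are not reported here. Of 65 listed markers, 64 matched a gene (Dl did not), and esg was not among the features counted in either tissue. Alternatives were DESeq2 1.42.0 size factors and its Wald test, limma-voom (limma 3.58.1), no count filter, the replicate number as a block, only the 2 groups compared, each library left out, and a crossed block added after seeing the data.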

Additional observations from a re-analysis of the deposited data

Results flagged for a closer look

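Ugt35E2 differed in direction between tissues in orco2 flies. It had 4.54 and 3.78 CPM in orco2 heads at day 40, against 2.57 and 3.16 CPM in w1118 heads, a log2 fold change of 0.54 with no overlap. In guts it had 3.42, 3.12 and 2.62 CPM in orco2 flies, against 3.48, 12.7 and 14.7 CPM in w1118 flies, a log2 fold change of -1.75, again with no overlap. Neither change passed the adjusted threshold (0.175 in heads and 0.0871 in guts, edgeR with Benjamini-Hochberg), and the difference between tissues was not tested because the tables were scaled separately. The first w1118 gut library, low in Malpighian tubule markers, was the lowest of its group, and the part of that tissue was not tested.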

How the results depend on the processing

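Of 55 member calls, 22 were kept under every alternative run. Over 812 values of these calls under alternatives, 650 kept direction and threshold, 162 kept direction and missed the threshold, and 0 changed sign. The count of members called moved by over 1.5 times under some fits. The DESeq2 Wald test gave 10 in orco2 against w1118 heads at day 3, 2 in the interaction and 11 in per01 against orco2 guts, and no count filter gave 2 in the interaction. In per01 against orco2 guts, DESeq2 size factors gave 2, limma-voom 8 and a fit of only the 2 groups 13, which also gave 3 in per01 against w1118 guts. With 1 library left out, counts ran from 4 to 12 (orco2 against w1118 heads, day 3), 5 to 14 (day 40), 6 to 11 (age, orco2), 2 to 9 (age, w1118) and 0 to 3 (interaction). In guts they ran from 2 to 15 (orco2 against w1118), 4 to 16 (per01 against w1118) and 1 to 10 (per01 against orco2). A head group left with 1 library takes its spread from the other groups. The causes were not tested.

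Deviations of same-numbered libraries had a correlation of -0.264 to 0.0548 in heads and -0.551 to 0.263 in guts. In 0 of 8 head and 0 of 9 gut libraries was the best correlation with the own number, so no pairing by number was seen. With 2 libraries per head group, deviations from the group mean mirror each other, so same-number and other-number correlations are equal and opposite. This check cannot show whether the libraries were collected in pairs. With the replicate block, the count was 5 in orco2 against w1118 guts and 8 in per01 against w1118 guts, and within 1.5 times of the count without it in the other comparisons. With the numbers of the orco2 day 40 heads crossed, an alternative added after seeing the data, 12 members were called against w1118 heads and 9 against day 3. The smallest log2 fold change called, by size, was 1.13 among gut members and 0.54 among head members.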
